A study of Homo sapiens with 3 samples.

Results

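The 32 genes described here carry fatty acids into the cell and oxidise them in the mitochondrion, and they were 32 of the 32738 genes in the count table of human chambered cardiac organoids (CCOs). They were picked by name for their known roles, and all 32 were found; the rule uses no measured value, though earlier results of these data were known. The organoids came from the human embryonic stem cell line H7 and were outside the EDN1 treatment of the study's disease model. They were formed the day before D8 from dissociated cardiac cells embedded in Matrigel. The D8 library was taken just after formation, the D14 library after expansion of progenitors in cardiosphere growing medium (CGM), and the D21 library after 7 further days in RPMI/B27 maturation medium. Cells were read by 10x Chromium 3' single-cell RNA sequencing, in which a unique molecular identifier (UMI) marks the 3' end of 1 captured mRNA molecule. Each day was 1 library of 1 cell line, so no difference between days or classes could be tested, and all intervals below are 95% intervals for counting error only. Among its growth factors CGM held Wnt-3A and EDN1, and at D14 the organoids were moved from well plates into a spinner flask. The time in culture, the medium, the culture vessel and the library cannot be told apart.

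In the heart, long-chain fatty acids are the main fuel of the adult muscle cell, while the fetal heart relies more on glucose and lactate. Fatty acids enter through CD36, are carried in the cytosol by fatty acid binding proteins (FABPs), are joined to coenzyme A by long-chain acyl-CoA synthetases (ACSLs), and cross into the mitochondrion as carnitine esters made by CPT1 and reversed by CPT2. In the matrix each turn of beta-oxidation runs through an acyl-CoA dehydrogenase, a hydratase, a hydroxyacyl-CoA dehydrogenase and a thiolase, and its electrons reach the respiratory chain through the electron transfer flavoprotein. Hepatocytes run the same pathway, with FABP1 in place of FABP3 as the main binding protein.

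After limits on genes and mitochondrial UMIs, 2657, 3585 and 1946 cells were kept at D8, D14 and D21, with a median of 15316, 12282 and 14106 UMIs per cell. The mitochondrial limit weighed most on D21, where 3928 barcodes passed the limits on genes and 1946 of them also held under 10% mitochondrial UMIs. Any 2 libraries shared 9 to 14 barcodes among the kept cells. Clusters over all 3 days were named from marker lists as cardiomyocyte-like (CM-like; 497, 1105 and 542 cells at D8, D14 and D21), fibroblast-like (295 and 824 cells at D14 and D21), hepatic-like (306 cells at D21), endothelial-like (48, 53 and 38 cells) and dividing cells. These same markers gave the names, so their counts restate the naming rule and are no separate check. All 10 CM markers led the 3 main CM-like clusters, and all 10 hepatic markers led the hepatic-like cluster. All 10 fibroblast markers led the D21 fibroblast-like cluster against 5 in the D14 one. TNNT2, the cardiac troponin T gene, stood at 1723, 2911 and 8862 CPM (the UMIs of a gene per 1000000 UMIs of the class) in CM-like cells at D8, D14 and D21. The D21 CM-like cells came mostly from cluster 5 (488 cells), with 50 cells of cluster 17, where only 7 of the 10 CM markers passed and the hepatic gene AFP stood at 5366 CPM against 161 CPM in cluster 5. Counts and ratios that cluster 17 moves most are given with and without it. Different clusters hold the CM-like class on different days, and levels between days are levels of those clusters.

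The promoters of the genes that differed most between CM-like and hepatic-like cells, and of a pair of genes that share 1 promoter region, are shown first. RefSeq (GRCh38.p14) gave a promoter for 25 of the 32 genes, and each sequence below is the 250 bases before the start site, read 5' to 3' on the strand of its gene. FABP3, the heart-type binding protein, lies at chr1:31373077-31373326 on the minus strand, with 69.2% G and C and none of the motifs searched. FABP1, the liver-type binding protein, lies at chr2:88128063-88128312 on the minus strand, with 48% G and C. Its first capitals mark TGACCT, which is the core of a nuclear receptor site when read on the other strand. Its second capitals mark the letters of a TATA box. HADHB lies at chr2:26244689-26244938 on the plus strand and HADHA at chr2:26244633-26244882 on the minus strand. Their start sites are 307 bases apart and the windows share 194 bases, and capitals in both mark the GC box GGGCGG, written CCGCCC where it lies on the other strand.
FABP3: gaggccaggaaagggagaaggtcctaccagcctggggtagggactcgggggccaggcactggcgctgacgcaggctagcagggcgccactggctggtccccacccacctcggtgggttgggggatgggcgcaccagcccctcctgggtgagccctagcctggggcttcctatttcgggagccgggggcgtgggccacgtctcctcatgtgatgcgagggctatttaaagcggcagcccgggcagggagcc
FABP1: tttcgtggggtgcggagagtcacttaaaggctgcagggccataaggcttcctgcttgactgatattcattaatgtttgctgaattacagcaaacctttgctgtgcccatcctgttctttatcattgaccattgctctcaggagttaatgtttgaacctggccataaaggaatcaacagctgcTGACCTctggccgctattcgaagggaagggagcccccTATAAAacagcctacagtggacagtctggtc
HADHB: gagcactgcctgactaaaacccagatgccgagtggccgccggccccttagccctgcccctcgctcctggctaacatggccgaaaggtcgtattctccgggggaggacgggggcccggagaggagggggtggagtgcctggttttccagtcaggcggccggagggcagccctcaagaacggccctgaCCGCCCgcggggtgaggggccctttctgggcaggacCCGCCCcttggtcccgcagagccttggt
HADHA: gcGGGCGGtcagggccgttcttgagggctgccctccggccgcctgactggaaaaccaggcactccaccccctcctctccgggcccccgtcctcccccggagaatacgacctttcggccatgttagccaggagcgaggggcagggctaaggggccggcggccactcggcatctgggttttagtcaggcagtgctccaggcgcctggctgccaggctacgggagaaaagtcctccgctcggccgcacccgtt
Some genes have several promoters, and the 25 genes have 39. Searched on both strands, GGGCGG was found in 21 of the 39, which belong to 18 genes. It was found in 42.6% of 35116 promoters of the same length. AGGTCA was found in 1 of the 39, that of FABP1, and in 12.1% of all promoters. TATAAA was found in 4 of the 39, those of ACADVL, CD36 and FABP1, and in 10.7% of all promoters. The longer TCAAGGTCA (the ESRR site letters, which contain AGGTCA) and the PPAR site, AGGTCA given again after any 1 base, were found for none of the 25 genes, and in 0.319% and 0.0171% of all promoters. A match is a string of letters, and no binding was measured.

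The binding proteins changed places in CM-like cells between the libraries. FABP3 stood at 33.3 CPM (29.4 to 37.5) at D8, 249 CPM (241 to 257) at D14 and 1142 CPM (1118 to 1167) at D21, from 269, 3645 and 8357 UMIs. The 3 intervals did not overlap, and the level was 34.3-fold higher at D21 than at D8 (log2 ratio 5.10, 4.92 to 5.28). FABP5, the epidermal-type protein, which has pseudogene copies that the counting may have split reads with, stood at 114 CPM (107 to 122), 210 CPM (203 to 218) and 78.3 CPM (72.0 to 85). It was highest at D14 and lowest at D21, the opposite order of FABP3 over the last week. Of all FABP1, FABP3, FABP4 and FABP5 UMIs in CM-like cells, FABP3 made 22.6% at D8, 54.2% at D14 and 89.5% at D21, and FABP5 made 77.4%, 45.8% and 6.13%. FABP4, the adipocyte-type protein, had 0 UMIs in CM-like cells on every day, which allows up to 0.371, 0.205 and 0.410 CPM.

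FABP1 marked the hepatic-like cells. It had 0 UMIs in CM-like cells at D8, 1 UMI at D14 and 410 UMIs (56.0 CPM, 50.7 to 61.7) at D21, against 1944 CPM (1913 to 1976) in the hepatic-like and 34.9 CPM (31.5 to 38.5) in the fibroblast-like cells of the same D21 library. Against the 3 counts that a count of 0 allows at D8, the D21 level in CM-like cells was at least 151-fold higher, or at least 83.2-fold without cluster 17. Against the 1 UMI of D14 the log2 ratio was 9.68 (7.19 to 14.99), or 8.82 without it. The level in D21 CM-like cells was 2.88% of that in hepatic-like cells, where the 10 hepatic markers in CM-like cells stood at 1.83% to 4.50% of their own hepatic-like levels (median 2.46%), so FABP1 there lay within the range of hepatic transcripts found in cells of another type. Within the class, cluster 17 held it at 410 CPM and cluster 5 at 30.7 CPM. FABP3 in hepatic-like cells (41.4 CPM) was 3.62% of its CM-like level, inside the 3.15% to 5.31% of the 10 CM markers, and in fibroblast-like cells (59.1 CPM) it was 5.17%, inside their 3.74% to 10.8%. FABP3 in both classes thus lay within the range of the CM marker transcripts found there. FABP1 in fibroblast-like cells was 1.79% of its hepatic-like level, above the 0.927% to 1.41% of the hepatic markers.

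CD36 and LPL, the uptake genes at the cell surface, were near the limit of detection in CM-like cells. CD36 had 2, 4 and 22 UMIs at D8, D14 and D21, or 3.01 CPM (1.88 to 4.55) at D21, beside 4.66 CPM (3.25 to 6.48) in hepatic-like cells. LPL, the lipase that frees fatty acids from lipoproteins, had 0, 7 and 8 UMIs in CM-like cells. Its highest level in a named class was 41.8 CPM (29.1 to 58.2) in the 48 endothelial-like cells of D8, against 6.23 CPM at D14 and 1.71 CPM at D21 in that class, from 4 UMIs and 1 UMI. Of the 5 adipocyte markers at most 2 had a UMI in any class of D21, with a summed level of 0 to 5.99 CPM there, highest in hepatic-like cells, and ADIPOQ had 1 UMI over all libraries. Of the 6 macrophage markers at most 4 had a UMI in any named class, and C1QA had none. Their summed level at D21 was 8.20 CPM in CM-like, 20.8 CPM in hepatic-like, 27.5 CPM in fibroblast-like and 69.9 CPM in endothelial-like cells, mostly CD14 outside the CM-like cells, and its part in the levels above was not tested.

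**Figure D1:**
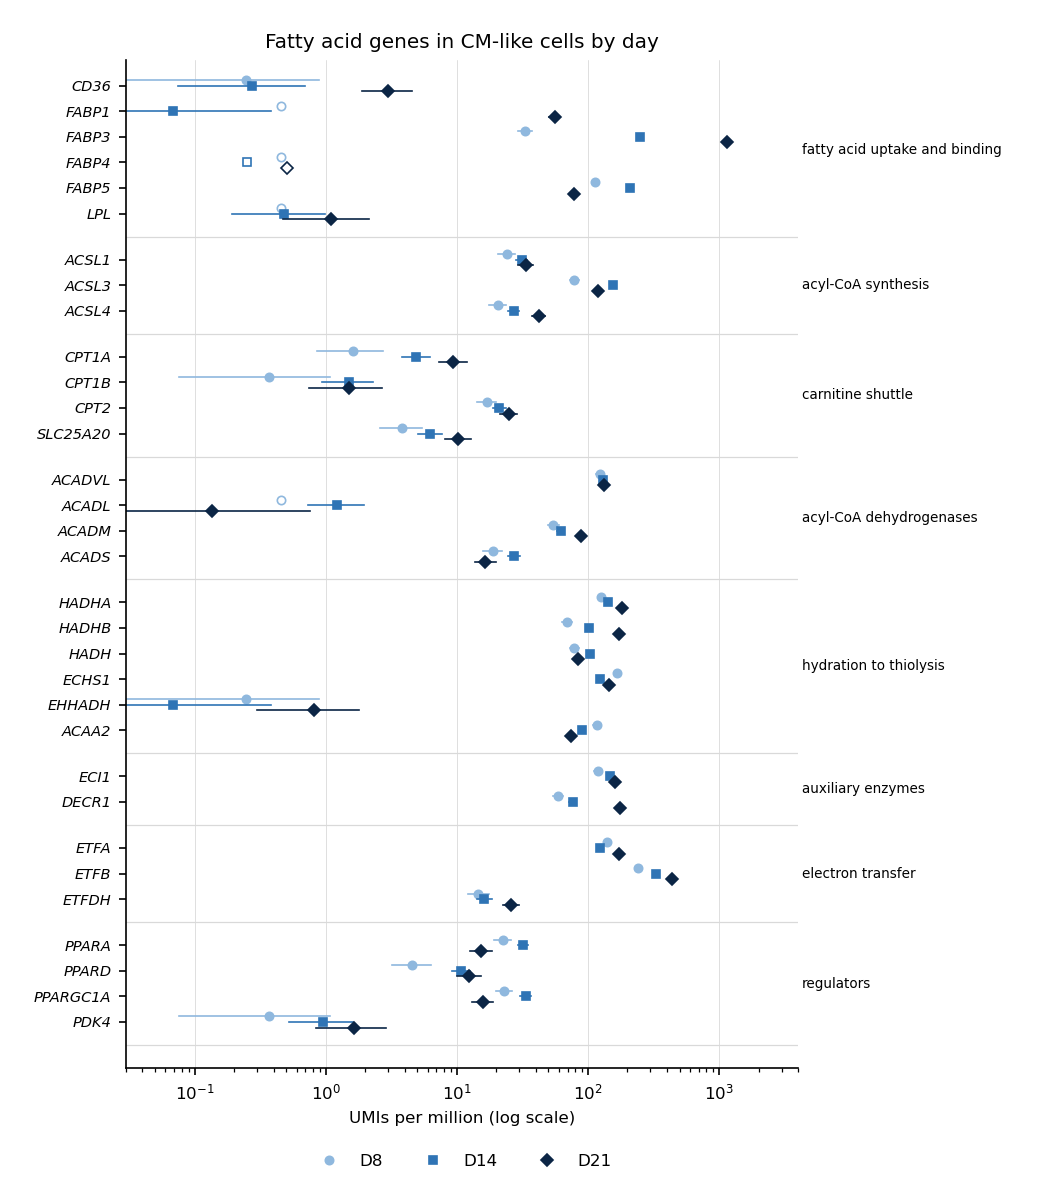
Levels of the fatty acid genes in CM-like cells at D8, D14 and D21, in CPM on a log axis, ordered by role, with lines for 95% counting intervals and open symbols for genes with 0 UMIs drawn at their upper limit. FABP3 moves from 33.3 to 1142 CPM, and the most abundant enzyme, ETFB, from 239 to 439 CPM.

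Among the ACSLs, which trap fatty acids as acyl-CoA, CM-like and hepatic-like cells used different members. ACSL3, a synthetase of the endoplasmic reticulum and lipid droplets, led in CM-like cells on every day, with 78.7 CPM (72.7 to 85.1), 156 CPM (150 to 163) and 119 CPM (111 to 127), or 63.9%, 72.8% and 61.1% of the 3 genes' UMIs. ACSL1, the form that supplies oxidation in adult heart, stood at 24.0 CPM (20.8 to 27.6), 31.2 CPM (28.4 to 34.2) and 33.5 CPM (29.4 to 38.0). Its share of the 3 genes' UMIs was 19.5%, 14.5% and 17.2%, so it gained no share by D21. ACSL4, which prefers arachidonate, stood at 911 CPM (889 to 932) in hepatic-like cells and made 88.8% of the ACSL UMIs there. In D21 CM-like cells ACSL4 stood at 42.1 CPM (37.5 to 47.1) (204 CPM in its cluster 17 and 30.7 CPM in its cluster 5). Without cluster 17, ACSL4 no longer lay 2-fold above its D8 level of 20.5 CPM (17.5 to 23.9).

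The carnitine shuttle was sparse. CPT1A, the liver-type carnitine palmitoyltransferase of the outer membrane, had 13, 72 and 69 UMIs in CM-like cells, or 1.61 CPM (0.857 to 2.75), 4.92 CPM (3.85 to 6.20) and 9.43 CPM (7.34 to 11.9). CPT1B, the muscle-type form that replaces it in adult heart, had 3, 22 and 11 UMIs, or 0.371, 1.5 and 1.5 CPM; its row overlaps a read-through row with CHKB that held at most 1 UMI per library. CPT1B thus made 18.8%, 23.4% and 13.8% of CPT1 UMIs, and the liver-type form was the more abundant on all 3 days. CPT2, which frees the acyl-CoA in the matrix, stood at 17, 21.1 and 25.0 CPM in CM-like cells and at 13.8 and 9.03 CPM in the hepatic-like and fibroblast-like cells of D21. SLC25A20, the carrier that exchanges acylcarnitine for carnitine, was higher in hepatic-like cells (22.5 CPM, 19.2 to 26.2) than in CM-like cells at D21 (10.3 CPM, 8.06 to 12.9).

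In the beta-oxidation spiral, the genes of the trifunctional protein stood higher at D21. HADHB, its thiolase subunit, stood at 69.3 CPM (63.7 to 75.3) at D8, 101 CPM (96.3 to 107) at D14 and 171 CPM (162 to 181) at D21 in CM-like cells, and the 3 intervals did not overlap. The level was 2.47-fold higher at D21 than at D8 (log2 ratio 1.3, 1.16 to 1.45). HADHA, the hydratase and dehydrogenase subunit that shares the promoter region above, stood at 127 CPM (119 to 135), 142 CPM (136 to 149) and 183 CPM (173 to 193). The pair thus stood in the same order of days, HADHB with the larger ratio. In the D21 library HADHB was at 101 CPM (94 to 108) in hepatic-like and 103 CPM (97.5 to 110) in fibroblast-like cells, whose intervals overlapped each other and lay below that of CM-like cells. HADHA stood at 137 CPM and 132 CPM in those classes.

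The acyl-CoA dehydrogenases, which start each turn and divide the work by chain length, did not share 1 pattern. ACADVL, for very long chains, stood at 123 CPM (115 to 131), 131 CPM (125 to 137) and 132 CPM (124 to 140) in CM-like cells at D8, D14 and D21, with intervals that overlapped throughout, and at 201 CPM (191 to 211) in hepatic-like cells. ACADM, for medium chains, stood at 54.6, 61.9 and 88.6 CPM. ACADS, for short chains, stood at 18.8, 27.3 and 16.5 CPM. ACADL, the long-chain form that human tissues hardly use, had 0, 18 and 1 UMIs. EHHADH, the bifunctional enzyme of peroxisomes, had 2, 1 and 6 UMIs in CM-like cells, at most 0.820 CPM, and 0.266 CPM in hepatic-like cells, so no difference could be read at this depth.

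The later steps were uneven too. ECHS1, the short-chain hydratase, stood at 167 CPM (158 to 176), 124 CPM (119 to 130) and 145 CPM (136 to 154) and was highest at D8. ACAA2, the medium-chain thiolase, was lower on each later day, at 117 CPM (109 to 124), 90.2 CPM (85.4 to 95.2) and 74.6 CPM (68.5 to 81.2). HADH, the hydroxyacyl-CoA dehydrogenase for shorter chains, stood at 78.5, 103 and 83.9 CPM. The thiolases ACAA2 and HADHB therefore stood in opposite orders of days. The enzymes needed for unsaturated fatty acids stood higher at D21: DECR1, the dienoyl-CoA reductase, at 58.9 CPM (53.8 to 64.5), 76.4 CPM (72.0 to 81.0) and 175 CPM (166 to 185), and ECI1, the enoyl-CoA isomerase, at 119, 148 and 162 CPM. ETFB, the beta subunit of the electron transfer flavoprotein, was the most abundant of the 15 enzymes in all 3 CM-like groups at 239, 330 and 439 CPM. Its partner ETFA stood at 140, 123 and 171 CPM, and ETFDH, which passes the electrons on to ubiquinone, at 14.6, 16.2 and 26.0 CPM.

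Summed over the 15 enzymes of the spiral, its auxiliary steps and electron transfer, the level in CM-like cells was 1326 CPM (1301 to 1352) at D8, 1477 CPM (1458 to 1497) at D14 and 1869 CPM (1838 to 1900) at D21. At D21 the sum was 1822 CPM (1792 to 1853) in hepatic-like cells, 1010 CPM (992 to 1029) in fibroblast-like cells and 1032 CPM in endothelial-like cells. CM-like and hepatic-like cells were thus side by side, and the fibroblast-like cells lay well below them. The order of CM-like and hepatic-like cells depended on the scaling: with TMM factors, which correct for a few very abundant transcripts, the sums were 1917 and 2699. Over all cells the sum was 958, 1221 and 1441 CPM. In endothelial-like cells it was 845 CPM (784 to 909), 858 CPM (788 to 933) and 1032 CPM (951 to 1118), with intervals that overlapped between D8 and D14. In fibroblast-like cells the order was the other way, with 1316 CPM (1283 to 1351) at D14 and 1010 CPM at D21. Whether the difference between days was larger in CM-like cells was not tested.

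**Figure D2:**
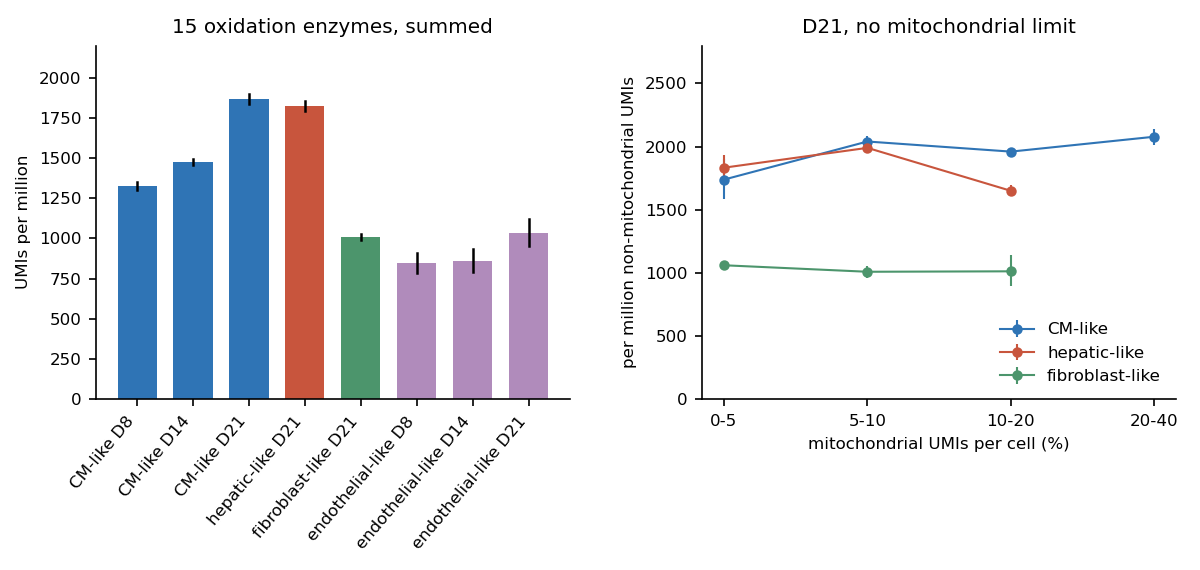
Summed level of the 15 beta-oxidation enzymes. The left panel gives CPM by class and day with 95% counting intervals, with CM-like cells at 1326, 1477 and 1869 CPM; the right panel gives D21 cells by their share of mitochondrial UMIs, in CPM of the UMIs of nuclear genes, where CM-like cells lie between 1738 and 2078.

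The transcriptional regulators were low and showed another order. PPARGC1A, the coactivator of mitochondrial biogenesis and fatty acid oxidation, stood at 23.0 CPM (19.8 to 26.6), 33.5 CPM (30.6 to 36.6) and 15.7 CPM (13.0 to 18.9) in CM-like cells. PPARA, the nuclear receptor for fatty acids in heart and liver, stood at 22.5 CPM (19.4 to 26.1), 31.9 CPM (29.1 to 34.9) and 15.3 CPM (12.6 to 18.4). Among these cells, all under 10% mitochondrial UMIs, both were highest at D14 and lowest at D21, opposite to the summed enzymes between those days. D21 CM-like cells past that limit held more of both, scaled to the UMIs of nuclear genes. PPARGC1A stood at 26.9 and PPARA at 25.2 in cells of 10% to 20%, and at 36.4 and 34.4 in cells of 20% to 40%. The order of days thus held for the cells kept. PPARD, a related receptor, stood at 4.58, 10.7 and 12.4 CPM, and PPARA made 83.1%, 74.8% and 55.2% of the UMIs of both receptors. PDK4, a PPAR target that holds back pyruvate oxidation, had 3, 14 and 12 UMIs, or at most 1.64 CPM. In D21 hepatic-like cells PPARA stood at 24.4 CPM (21.0 to 28.2) and PPARGC1A at 2.66 CPM (1.63 to 4.11).

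From D8 to D14 the genes stood a little higher as a group in CM-like cells. Of 21 of the 32 genes with a mean of 10 CPM or more over both days, 1 was 2-fold or more higher (FABP3) and 0 were 2-fold lower, where 8.94% and 1.99% of the 8498 genes at that level were. Their median log2 ratio was 0.38, against 0.04 over all those genes, and 18 of the 21 lay above that overall median. After FABP3 (2.90, 2.72 to 3.09) came ACSL3 (0.99), FABP5 (0.88), HADHB (0.55) and PPARGC1A (0.54). The lowest was ECHS1 (-0.43, -0.53 to -0.32), followed by ACAA2 (-0.37) and ETFA (-0.19). The other 11 genes, too low for a ratio here, were FABP1, FABP4, LPL, CD36, CPT1A, CPT1B, SLC25A20, ACADL, EHHADH, PPARD and PDK4.

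From D14 to D21, the week in maturation medium in the spinner flask, the ratios spread in both directions. Of 23 genes at 10 CPM or more, 3 were 2-fold or more higher (FABP1, FABP3 and DECR1) and 3 were 2-fold lower (FABP5, PPARGC1A and PPARA), beside 4.61% and 12.6% of 8436 genes. FABP1, with 1 UMI at D14, could pass the 10 CPM limit only through D21, which fixed its place among the higher genes. The median log2 ratio was 0.22 against -0.15 over all genes, and 16 of 23 lay above the overall median. FABP3 stood at 2.20 (2.14 to 2.25), DECR1 at 1.2 (1.08 to 1.31), HADHB at 0.75 (0.65 to 0.86) and ETFDH at 0.68 (0.40 to 0.96). FABP5 stood at -1.42 (-1.56 to -1.30), PPARGC1A at -1.09 (-1.40 to -0.80), PPARA at -1.06 (-1.37 to -0.76), ACADS at -0.73 and ACSL3 at -0.40. With TMM factors only 1 gene was 2-fold lower, beside 9.35% of all genes.

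Over the whole course from D8 to D21, 5 of 22 genes were 2-fold or more higher (FABP1, FABP3, DECR1, HADHB and ACSL4) and 0 were 2-fold lower, beside 10.7% and 13.2% of 8206 genes. Without cluster 17 the number higher was 4, since ACSL4 was then under 2-fold, beside 10.5% of all genes. FABP1, with 0 UMIs at D8, could pass the 10 CPM limit only through D21, which fixed its place among the higher genes. Its D21 level lay within the range of hepatic transcripts in other cells, as given above. The median log2 ratio was 0.50 against -0.11 over all genes, and 16 of 22 lay above the overall median. DECR1 stood at 1.57 (1.42 to 1.73), and the lowest were ACAA2 at -0.64, PPARA at -0.56, PPARGC1A at -0.55, FABP5 at -0.54 and ECHS1 at -0.21. No gene of these 3 comparisons changed its direction under TMM or median-of-ratios scaling. The 3 comparisons share libraries and are not independent of each other.

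Between CM-like and hepatic-like cells of D21 the largest ratios were those of isoforms, not of the enzymes of the spiral. Of 24 genes, 1 was 2-fold or more higher in CM-like cells (FABP3, log2 ratio 4.79, 4.62 to 4.95) and 3 were 2-fold lower (FABP1 at -5.12, or -5.98 without cluster 17, ACSL4 at -4.43 and SLC25A20 at -1.13), beside 28.6% and 12.9% of 7748 genes. ACSL3 (0.87), CPT2 (0.85), HADH (0.77) and HADHB (0.76, 0.63 to 0.89) were next on the CM-like side, and PPARA (-0.67) and ACADVL (-0.61) on the hepatic side. The median was 0.04 (-0.01 without cluster 17) against 0.49 over all genes, so 18 of the 24 genes lay below the overall median. The hepatic-like UMIs were taken up by a few secreted proteins, with a TMM factor of 0.675 against 0.975 for CM-like cells. Under TMM 25 genes reached 10 CPM, and their median was -0.44 beside -0.07 over all genes. Of these 25, 8 were 2-fold lower and 2 higher, beside 21.1% and 14.6% of all genes. Of the 24, 6 flipped to the hepatic side under TMM (ACADS, HADHA, ECI1, DECR1, ETFA and ETFDH).

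**Figure D3:**
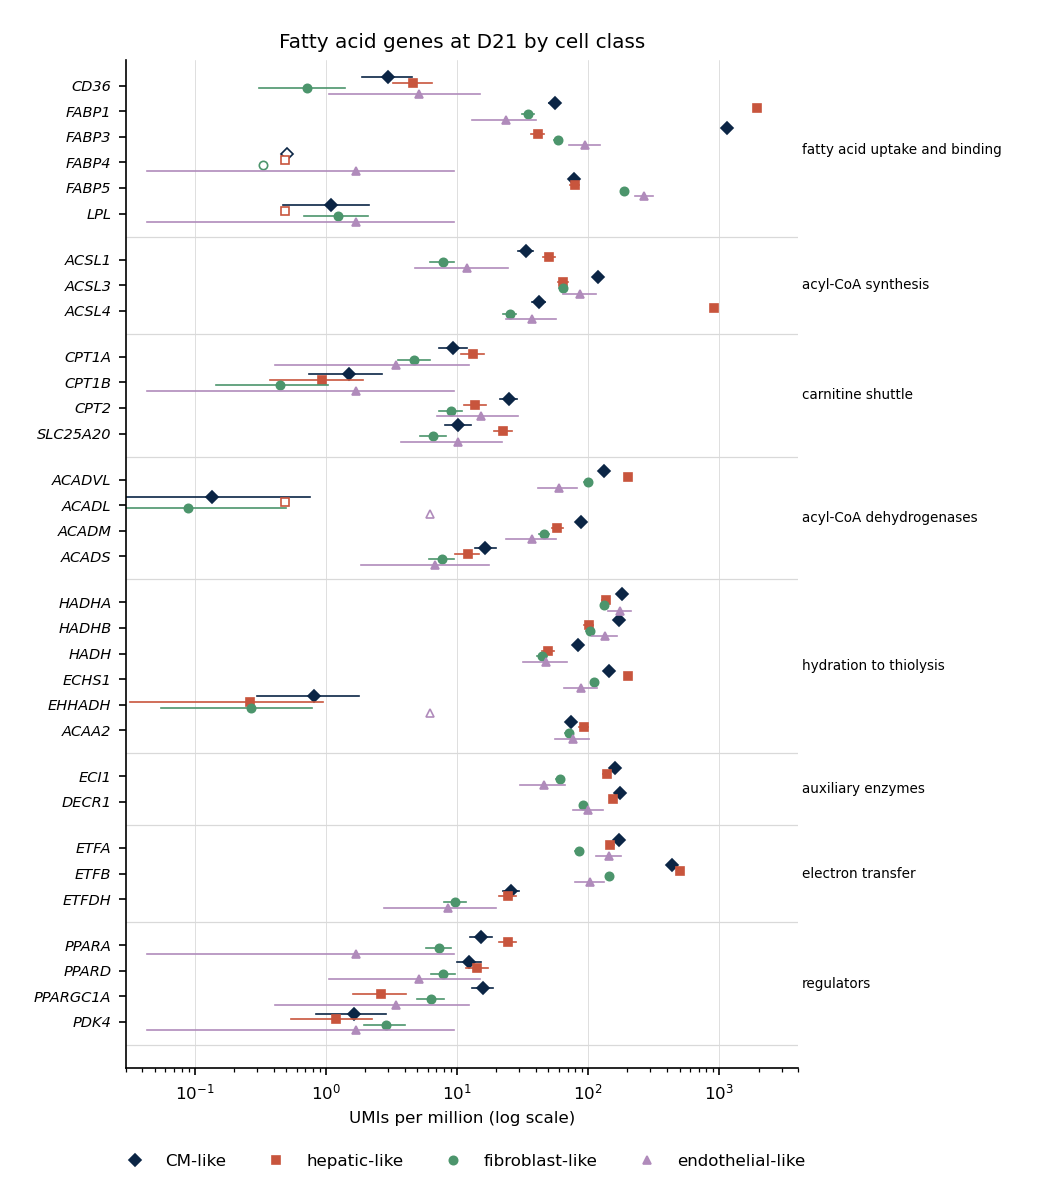
Levels of the fatty acid genes in the CM-like, hepatic-like and fibroblast-like cells of the D21 library, in CPM on a log axis with 95% counting intervals. FABP3 (1142 against 41.4 CPM), FABP1 (56.0 against 1944 CPM) and ACSL4 (42.1 against 911 CPM) part the CM-like from the hepatic-like cells, and the enzymes of the spiral lie close together.

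Against the fibroblast-like cells of the same library, the CM-like cells were higher across nearly the whole pathway. Of 23 genes, 10 were 2-fold or more higher and 1 was 2-fold lower, beside 13.2% and 13.2% of 8113 genes. The median log2 ratio was 0.93 against 0.06 over all genes. All 13 of the 15 enzymes at 10 CPM or more lay above 0, with the same median of 0.93, and no gene of the 23 changed its direction with the scaling. The 10 were FABP3 (4.27, 4.16 to 4.39), ACSL1 (2.11, 1.75 to 2.48), ETFB (1.60, 1.52 to 1.69), CPT2 (1.47), ETFDH (1.41), ECI1 (1.40), PPARGC1A (1.31), ACADS (1.10), PPARA (1.06) and ETFA (1.01), and the 1 lower gene was FABP5 (-1.26, -1.40 to -1.13). ACAA2 (0.06), ECHS1 (0.37), ACADVL (0.40) and HADHA (0.47) were nearest to equal. By ratio, the electron transfer genes, ACSL1 and CPT2 thus lay above the thiolase and hydratase genes. ACSL1, CPT2, ETFDH, ACADS, PPARA and PPARGC1A lay under 10 CPM in fibroblast-like cells and passed the limit only through the CM-like cells. For PPARGC1A this fixed its place among the higher genes. With a mean of 50 CPM or more, 4 of 14 genes were higher and 1 lower, beside 13.6% and 13.9% of all genes. The counts of this comparison also rest on how the cells were named. Where cells were taken by markers alone, without clusters, the median was 0.39 over 19 genes. Of these, 2 were 2-fold higher and 0 lower, beside 7.51% and 3.42% of all genes. Without cluster 17 the number higher was 9 of 23, beside 12.9% of all genes.

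Hepatic-like cells differed from fibroblast-like cells in a similar number of genes, with 9 of 22 genes 2-fold or more higher and 1 lower, beside 10.9% and 23.6% of 7676 genes. The median log2 ratio was 0.83 against -0.44 over all genes. ACSL1 (2.69), ETFB (1.79), PPARA (1.73), ETFDH (1.32) and ECI1 (1.18) were 2-fold higher here and also on the CM-like side of the comparison above, which shares the fibroblast-like cells. FABP1 (5.80), ACSL4 (5.17) and ACADVL (1.01) were 2-fold higher in the hepatic-like contrast and not in the CM-like one, and SLC25A20 (1.77) was too low for a ratio in the latter. ACSL1, PPARA, ETFDH and SLC25A20 passed the 10 CPM limit here only through the hepatic-like cells. Neither overlap nor difference of these lists was tested.

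**Figure D4:**
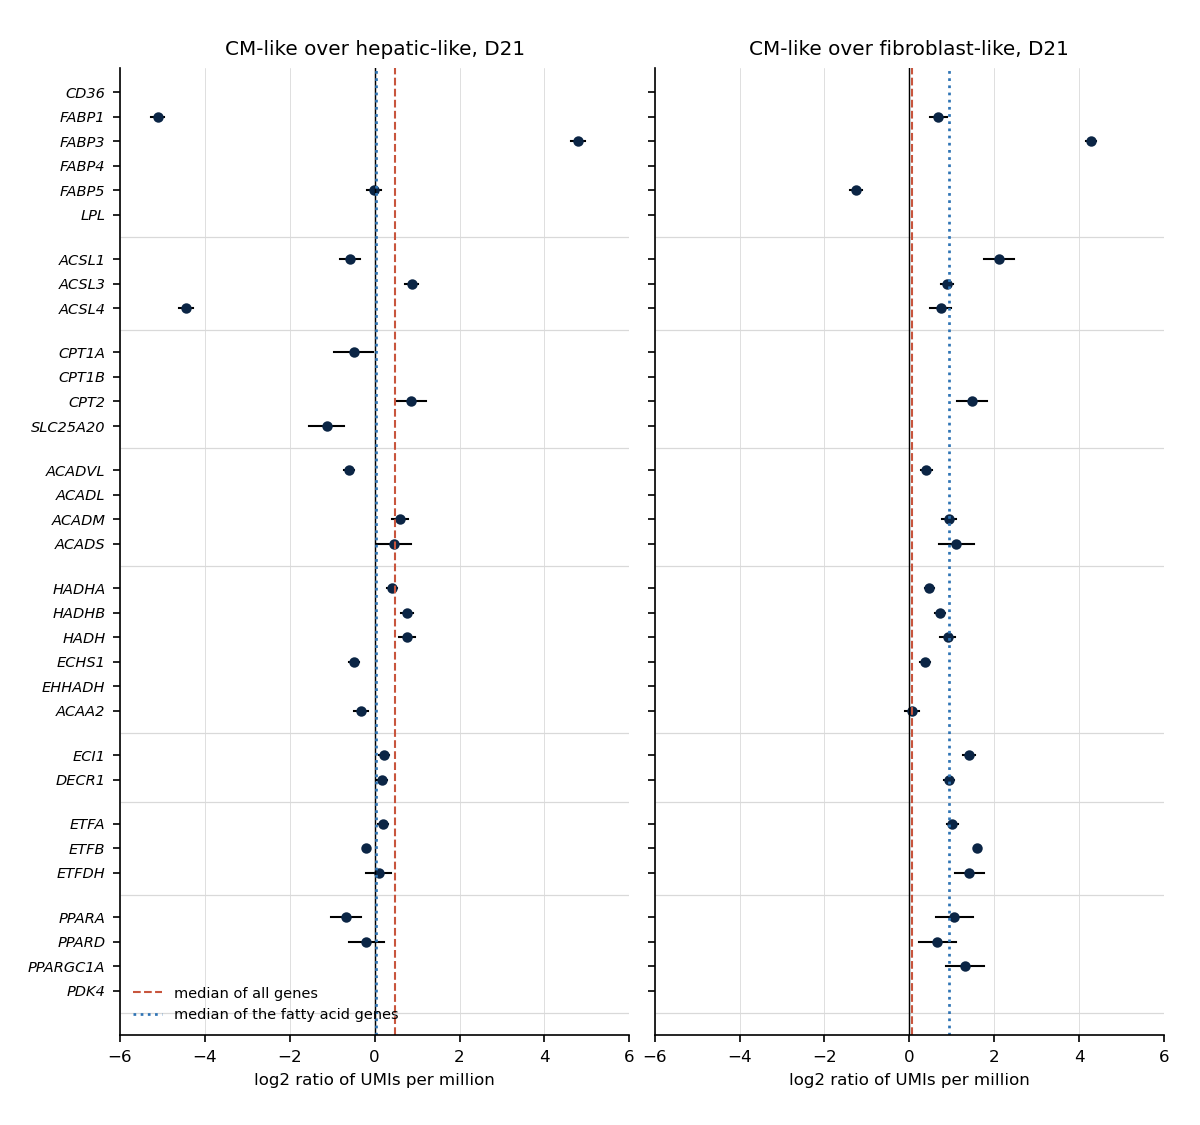
Log2 ratio of CM-like over hepatic-like and of CM-like over fibroblast-like cells at D21 for each fatty acid gene, with 95% counting intervals; rows are blank where the mean was under 10 CPM. The dashed line is the median of all genes (0.49 and 0.06) and the dotted line that of the fatty acid genes (0.04 and 0.93), which lies below the dashed line in the hepatic panel and above it in the fibroblast panel.

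The fibroblast contrast was smaller at D14, where the fibroblast-like cluster met fewer of its markers. Of 21 genes, 5 were 2-fold or more higher in CM-like than in fibroblast-like cells of D14 (FABP3, ACSL1, ACSL3, ECI1 and PPARGC1A) and 0 were lower, beside 10.8% and 7.94% of 8723 genes, with a median of 0.28. PPARGC1A stood at 1.15 CPM in those fibroblast-like cells against 33.5 CPM in CM-like cells, a log2 ratio of 4.86 (3.63 to 6.49). PPARGC1A and ACSL1, the latter with 24 UMIs in those fibroblast-like cells, could pass the 10 CPM limit only through the CM-like cells. The limit thus fixed their places among the 5 higher genes. Against endothelial-like cells of D21, 9 of 21 genes were 2-fold higher in CM-like cells and 1 lower (FABP5), beside 17.5% and 18.2% of 8169 genes, with a median of 0.80 from only 38 endothelial-like cells. FABP5 stood at 268 CPM (228 to 313) in these cells, above its level in CM-like, hepatic-like and fibroblast-like cells of D21.

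Earlier libraries and other classes were read in the same way. At D8, 4 of 21 genes were 2-fold or more higher in CM-like cells than in the largest unnamed cluster of that library (cluster 1, 1068 cells) and 1 was lower, where 4.18% and 1.96% of 8154 genes were, with a median of 0.43. At D14, 4 of 21 were higher than in cluster 2 (1047 unnamed cells) and 0 lower, where 7.80% and 3.90% of 8745 genes were, with a median of 0.47. ACSL1 had 68 UMIs in cluster 1 and 53 UMIs in cluster 2. It could pass the 10 CPM limit only through the CM-like cells, which fixed its place among the higher genes of both. From D8 to D21, 3 of 18 were 2-fold or more higher in dividing cells and 0 lower, where 10.2% and 7.93% of 8360 genes were, with a median of 0.44 against -0.03 over all genes. In endothelial-like cells over the same days 5 of 20 were higher and 3 lower, where 13.2% and 15.9% of 8064 genes were, with a median of 0.23 from 48 and 38 cells. FABP1, FABP3 and DECR1 were the 3 higher genes of dividing cells and were among the 5 of endothelial-like cells. FABP1 had 0 UMIs in both classes at D8 and could pass the 10 CPM limit only through D21. The part of stray transcripts of FABP1 and FABP3 in these counts was not tested. The 3 lower genes of endothelial-like cells were LPL, ETFDH and PPARA. LPL and PPARA had 1 UMI each at D21, and PPARA had 17 UMIs at D8. Both could pass the 10 CPM limit only through D8, which fixed their places among the lower genes.

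Read per cell, the same genes showed how widely a class carried them. Each cell was thinned to 4000 UMIs, which left out no cell. FABP3 was seen in 11.1% (8.4% to 14.2%), 50% (47.1% to 53.0%) and 94.1% (91.8% to 95.9%) of CM-like cells at D8, D14 and D21, and without thinning in 33.4%, 79.2% and 98.7%. At D21 it was seen in 16% of hepatic-like, 20.5% of fibroblast-like and 23.7% of endothelial-like cells. In hepatic-like and fibroblast-like cells the FABP3 level lay within the marker ranges above, and whether these UMIs were stray was not tested. In endothelial-like cells FABP3 stood at 8.36% of its CM-like level, above the 3.61% to 7.02% of the 10 CM markers there. The median CM-like cell held 0, 1 and 4 FABP3 UMIs per 4000, and at D21 the 10th and 90th percentiles were 1 and 8. HADHB was seen in 22.7%, 34.3% and 48.9% of CM-like cells, beside 35.0% of hepatic-like and 32.4% of fibroblast-like cells at D21. FABP1 was seen in 85.3% of hepatic-like cells (80.8% to 89.1%), and in 19.9% of CM-like and 11.2% of fibroblast-like cells. The median CM-like cell held UMIs of 4, 4 and 5 of the 15 enzymes at D8, D14 and D21, the hepatic-like cell 5 and the fibroblast-like cell 3. At this depth 1.01% and 0.452% of CM-like cells of D8 and D14, and 2.55% of fibroblast-like cells of D21, held no UMI of the 15.

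The limit on mitochondrial UMIs, which are read from genes of the mitochondrial genome, removed many D21 cells, and the fatty acid genes were therefore also read without it. The median share was 2.86%, 5.14% and 8.41% in CM-like cells at D8, D14 and D21, 7.68% in hepatic-like and 3.78% in fibroblast-like cells, so it moved with the days and classes. When D21 cells were clustered without that limit and binned by their share, the summed enzymes, scaled as CPM to the UMIs of nuclear genes alone, were 1738 (23 CM-like cells under 5%), 2040 (374 cells, 5% to 10%), 1960 (1107 cells, 10% to 20%) and 2078 (247 cells, 20% to 40%). The fibroblast-like cells stood at 1060, 1008 and 1012 in the first 3 bins. The gap between the classes was thus present at every share measured in both. Single genes did move with the share in CM-like cells: from the lowest to the highest bin ACSL1 stood at 18.9, 38.0, 50 and 70.4, PPARGC1A at 11.3, 16.1, 26.9 and 36.4, PPARA at 15.1, 16.7, 25.2 and 34.4, and FABP5 at 90.7, 80.2, 61.8 and 42.2. The lowest bin held only 5 UMIs of ACSL1, 3 of PPARGC1A and 4 of PPARA. Their intervals there were 6.13 to 44.1, 2.34 to 33.1 and 4.12 to 38.7, so the values of that bin are loose. HADHB stood at 185, 179, 187 and 235. With a limit of 20% PPARA and PPARGC1A were still lower at D21 than at D14, with log2 ratios of -0.73 and -0.65 in place of -1.06 and -1.09. FABP5 (-1.76) was then the 1 gene left at 2-fold lower, beside 13.4% of all genes. The part of the mitochondrial share in the differences between days was not tested.

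The 88 genes of 7 neighbouring lists place the pathway among the others of lipid and energy metabolism. Over all of them, 13 of the 58 at 10 CPM or more were 2-fold or more higher and 4 lower from D8 to D21 in CM-like cells, beside 10.7% and 13.2% of all genes. Against hepatic-like cells 20 of 62 were higher and 14 lower, beside 28.6% and 12.9%, so that the share higher was near that of all genes. Against fibroblast-like cells 28 of 55 were higher and 2 lower, beside 13.2% and 13.2%. All 11 genes of the citrate cycle, which burns the acetyl-CoA that beta-oxidation yields, were at 10 CPM or more. Of them 10 were 2-fold or more higher in CM-like than in fibroblast-like cells at D21 and 0 lower, with a median log2 ratio of 1.44, and 7 were higher than in hepatic-like cells and 0 lower, with a median of 1.17. From D8 to D21 in CM-like cells 3 of the 11 were 2-fold higher and 0 lower, with a median of 0.77. By CPM the citrate cycle was higher in CM-like cells than in both other classes, the fatty acid genes than in the fibroblast-like cells. Ratios to hepatic-like cells are by CPM throughout, and each is lower under TMM, which moved the median of all genes from 0.49 to -0.07. Of the 12 other mitochondrial acyl-CoA enzymes at 10 CPM or more, 1 was 2-fold higher and 0 lower from D8 to D21, and 2 were higher and 1 lower than in hepatic-like cells. Of the 10 peroxisomal oxidation genes at that level, 1 was 2-fold higher and 3 lower in CM-like than in hepatic-like cells, with a median of -0.69. Of the 7 fatty acid synthesis genes, 1 was higher and 3 lower in that comparison, with a median of -0.93.

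Among the lists of uptake and regulation, single genes stood out by the size of their ratios. SLC27A6, the fatty acid transport protein found mainly in heart, stood at 0.99, 5.95 and 56.9 CPM in CM-like cells at D8, D14 and D21, a log2 ratio of 3.26 from D14 to D21. At D21 it stood at 1.33 CPM in hepatic-like and 2.33 CPM in fibroblast-like cells, log2 ratios of 5.42 and 4.61 for the CM-like cells. Its order of days and classes was that of FABP3, and unlike CD36 it was well above the limit of detection. SLC27A2, the liver-type transport protein, stood at 54.3 CPM in hepatic-like and 2.19 CPM in CM-like cells (-4.63), and SLC27A3 at 139 CPM in fibroblast-like and 26.7 CPM in CM-like cells (-2.38). HNF4A, a hepatic nuclear receptor, stood at 63.5 CPM in hepatic-like and 1.09 CPM in CM-like cells (-5.86). MGLL, the monoacylglycerol lipase, was read from 43, 396 and 5 UMIs in CM-like cells, or 5.32, 27.1 and 0.68 CPM. RXRG, a partner of the PPARs, stood at 4.46, 75.5 and 44.7 CPM.

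By count, the lipid droplet and other uptake list had 2 genes 2-fold or more higher and 3 lower of 8 from D14 to D21 in CM-like cells, and the other regulators had 0 higher and 2 lower of 10, beside 4.61% and 12.6% of all genes. Against fibroblast-like cells at D21, 7 of 9 other regulators were higher and 0 lower, with a median of 1.17, among them PRKAA2, a catalytic subunit of the energy sensor AMPK, at 41.5 against 3.40 CPM (log2 ratio 3.61). ESRRG, an orphan nuclear receptor that drives mitochondrial genes in heart, stood at 35.8, 53.2 and 32.1 CPM in CM-like cells and at 0.80 CPM in hepatic-like cells. Like PPARA and PPARGC1A, it was highest at D14. Of the 4 ketone body genes, 2 could be compared from D8 to D21, with 1 higher (ACAT1, 24.8 against 102 CPM) and 0 lower.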

How the data were processed

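Single-cell RNA libraries of CCOs were measured at D8, D14 and D21, 1 library each. The authors deposited 1 merged table of raw UMI counts, genes by barcodes, made with Cell Ranger on hg19 and analysed with Seurat 3.2.1 per the submitters' processing notes; all columns were mapped to a day by their names and 0 columns were left unused. The genes and lists described here were chosen with earlier results of these data known.

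Barcodes were kept between limits of 2000 and 7500 genes and below 10% mitochondrial UMIs, as in the study's methods. Kept cells held 46767738, 50247286 and 30898727 UMIs at D8, D14 and D21. All days were clustered together with Seurat 5.3.0 (R 4.3.3; 2000 variable genes less the fatty acid genes and pathway lists, which left 1980; 20 principal components; resolution 0.8), giving 18 clusters. A cluster was named from marker lists; the thresholds for naming, and the request for FOXA1 or FOXA2 in an endoderm name, were set after the data were seen. Scrublet (scanpy 1.11.5) called only 1, 1 and 7 doublets, so the caller is taken not to have worked and doublets were kept.

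Counts were summed per class and day and given as CPM with exact Poisson 95% intervals, and ratios with exact intervals from the split of the 2 sums (Python 3.11.15, scipy 1.17.1). Levels were not divided by length, since 3' UMIs count molecules. Genes with a mean of 10 CPM or more over both groups entered a comparison, and 2-fold was the size named. A count of 0 was read as up to 3 counts. Shares of cells have exact Clopper-Pearson intervals after thinning to 4000 UMIs per cell. UMIs are counted after amplification is collapsed, but captured molecules of 1 library are not replicates. TMM factors came from edgeR 4.0.16. The interval code was tested on simulated data. With 1 library per group no test was made and no p-value is given.

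The text gives HADHB, ACADVL, EHHADH, HADHA and the isoform sets in full, the 5 genes with the largest ratio each way per comparison, and up to 3 genes each way of the other lists. Alternatives changed the cell limits, clustering, naming, scaling, low-count filter, fold, thinning, doublets and free RNA; 2 more, without cluster 17 and with D21 cells of 5% to 10% mitochondrial UMIs, were added after seeing the data. Promoters came from RefSeq for GRCh38.p14, a later build than hg19, and no coordinate of the count table was used.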

Additional observations from a re-analysis of the deposited data

How the results depend on the processing

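No paired analysis was possible because each day was 1 library and the groups share fewer than 2 replicate numbers, and no library could be left out. Of the checks of the main values, 223 moved little, 76 moved and 0 were labelled reversed. Counts and shares could not get that label, nor could a median within its counting error. The median of CM-like over hepatic-like cells was such a median and did change sign. It went from 0.04 to -0.44 with TMM and to -0.25 where cells were taken by markers alone. Among 2093 checks of single genes 61 changed sign, 60 of them in genes under 2-fold. FABP5 from D8 to D21 was 1 of these genes (-1.06 to 0.86, with -0.54 as reported). The 1 change in a gene past 2-fold was FABP5 in CM-like over fibroblast-like cells, at 0.19 with a mitochondrial limit of 5% against -1.26. That limit left 36 CM-like cells at D21, and the cause of the other moves was not tested. FABP3 in CM-like cells stayed at 4.06 to 5.76 from D8 to D21 and HADHB at 1.09 to 1.5 (log2).

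From D8 to D14, the number 2-fold higher (1) was 2 with resolution 1.2, the 5% limit, without the highest Scrublet scores, per nuclear UMIs and with free RNA subtracted. It was 3 with 3000 variable genes, more than 1000 genes per cell or 1.5-fold, and 6 with no filter, which gave 2 lower in place of 0. The share of all genes higher was 18.5% with 1.5-fold, 13.4% with no filter (14.3% lower) and 8.15% to 10.4% in the other settings named here. The median (0.38) was 0.60 with 3000 variable genes, 0.56 with more than 1000 genes and 0.047 as a difference of log-normalized means.

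From D14 to D21, the number higher (3) was 5 with the 5% limit and 6 with no filter or 1.5-fold. The number lower (3) was 1 with a 20% or no mitochondrial limit, the marker gate, TMM, median-of-ratios or 50 CPM. The median (0.22) was 0.069 with the gate, 0.39 with TMM, 0.41 with median-of-ratios, 0.032 as log-normalized means and 0.36 with no filter.

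From D8 to D21, the number higher (5) was 13 with no filter, 3 with 50 CPM, 9 with 1.5-fold and 4 to 6 in the other 16 settings. The shares of all genes higher were 18.9%, 11.1%, 19.1% and 9.80% to 16.8%. The number lower (0) was 1 with the 5% limit, no filter or 1.5-fold and 2 with no mitochondrial limit, beside 12.8%, 21.8%, 25.7% and 17.2% of all genes. The median (0.50) was 0.78 with 3000 variable genes, 0.29 with the gate, 0.67 with median-of-ratios, 0.080 as log-normalized means and 0.70 with no filter.

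In CM-like over hepatic-like cells, the median (0.04) was 0.30 with the 5% limit, -0.25 with the gate, -0.44 with TMM and -0.42 with median-of-ratios. The number higher (1) was 8 with the 5% limit, 2 with a 20% or no limit, TMM or median-of-ratios, 4 with no filter and 6 with 1.5-fold. The shares of all genes higher were 24.7% with the 5% limit, 27.8% with 20% and 27.2% with no limit. They were 14.6% with TMM, 14.8% with median-of-ratios, 32.1% with no filter and 46.2% with 1.5-fold. The number lower (3) was 5 with the gate, 8 with TMM, 7 with median-of-ratios and 6 with 1.5-fold.

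In CM-like over fibroblast-like cells, the median (0.93) was 1.09 with the 5% limit, 0.39 with the gate and 0.14 as log-normalized means. The number higher (10) was 2 with the gate, 4 with 50 CPM and 18 with 1.5-fold, beside 7.51%, 13.6% and 24.8% of all genes. The number lower (1) was 0 with the 5% limit or the gate, beside 12.4% and 3.42%.

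Shares of cells without thinning, and with 2 UMIs or more, were 64.6% and 4.63% for HADHB in CM-like cells at D8, 66.9% and 6.97% at D14 and 84.3% and 16.2% at D21. At D21 they were 98.7% and 83.8% for FABP3 in CM-like and 54.9% and 2.29% in hepatic-like cells, and 94.1% and 75.2% for FABP1 in hepatic-like and 35.4% and 5.90% in CM-like cells.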

Other observations

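In groups of cells outside the comparisons above, single fatty acid genes took other levels. The unnamed cluster 12 (206 cells of D8 and 78 cells of D14) held LPL at 6.97 CPM on D8 and 28.2 CPM on D14, beside 0 and 0.478 CPM in the CM-like cells. Dividing cells held FABP5 at 381 CPM on D8 and 303 CPM on D14, above all other classes and unnamed clusters listed for those days. Cluster 16, 59 unnamed cells of D21, held FABP3 at 618 CPM, between the 1142 CPM of CM-like cells and the levels of the other classes of that day. Its median Scrublet doublet score was 0.214.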
